A study of Mus musculus with 16 samples.

Results

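The peaks described here are 2042 regions of open chromatin that lost accessibility in primary pancreatic tumours when Smad4 was restored but did not lose it in lung tumours. They were selected on measured values. A nuclear peak was taken where its mean over the 16 samples was at least 40 normalised reads, where the mean with Smad4 restored in the pancreas was at most 0.6 times the mean with Smad4 off, and where the mean with Smad4 restored in the lungs was at least that with Smad4 off. They make up 1.49% of the 136630 nuclear peaks and 2.49% of the 82067 with a mean of at least 40. Of 6549 peaks that met the pancreas condition, the other 4507 were lower in the lungs too. The pancreas and lung changes of the 2042 peaks chose them and are therefore a description with no test, whereas the liver samples entered neither ratio. The liver samples did enter the mean over the 16 samples.

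Chromatin accessibility was measured by ATAC-seq, an assay in which a transposase cuts open DNA, in KC-shSmad4 tumour cells sorted by FACS for the fluorescent reporter mKate2. All groups share an engineered background that includes Ptf1aCre, an rtTA3-mKate2 allele and a hairpin, switched on by doxycycline (Dox), that silences Smad4 until the drug is withdrawn. Cre was driven from the pancreatic Ptf1a locus, the transplanted cells were lines derived from such tumours, lines of this model had deletions of Cdkn2a/b, and the female Foxn1nu hosts lack T cells but keep other leucocytes. Tumours were orthotopic in pancreas (Panc), or colonies in liver (Liv) or lungs (Lung), and were taken on Dox (Panc_OFF, Liv_OFF and Lung_OFF) or 14 days after withdrawal by the labels (Panc_ON, Liv_ON and Lung_ON), although the lung columns of the table are named for day 15. Each sample was 1 mouse, with n = 3 per group in pancreas and lungs and n = 2 per group in liver. Withdrawal began after 4 weeks of growth for Panc, 5 for Liv and 6 for Lung, so organ and time of growth cannot be told apart.

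SMAD4 is the common partner of the receptor-activated SMAD proteins and carries TGFβ signals to the genome, where the complex usually binds beside other transcription factors. It is lost in many pancreatic ductal adenocarcinomas. A distal ATAC-seq peak marks a candidate enhancer, and its level reflects both how open it is in a cell and how many cells of the sample have it open, which a bulk sample cannot tell apart. HNF1 and HNF4 factors act in endodermal epithelia such as liver, gut and pancreas, whereas AP-1, a dimer of JUN and FOS proteins, binds enhancers of many cell types under growth and stress signals.

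Samples held between 22994669 and 38218315 reads in peaks. The library Lung_OFF replicate 1 stood apart at these peaks. It was the lowest of the 6 lung samples at 1664 of the 2042 (81.5%) but at 28.6% of all peaks with a mean of at least 40. Because this library pulls the Lung_OFF mean down, it bears on the lung condition: without it, 902 of the 2042 peaks (44.2%) still met the whole rule and 1140 did not. For the 902, values are given beside the liver, organ, motif, gene list, feature and chromosome results, and most named peaks are said to meet the rule or not without this library. The test of a difference between the lung and the pancreatic response called 0 of all 136630 nuclear peaks with limma, and 14973 (11.0%) had an unadjusted p under 0.05. This count depended on the model. With the replicate number as a block, limma called 248 (194 higher and 54 lower in lungs minus pancreas). Each sample was a separate mouse, and the block assumes that samples of the same number belong together. Without a block, edgeR called 0 and DESeq2 2255 of 88934 peaks with an adjusted p.

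The sequences at the strongest examples are shown first. They are the central 200 bases of each peak on the plus strand of GRCm38 (mm10), 5′ to 3′, with matches to the searched letters of transcription factors in capitals. The first 3 have the lowest pancreas ratio, the fourth the highest lung ratio, and the fifth and sixth the smallest liver p-values downwards and upwards. The Cdhr2 and Gm6180 peaks carry HNF1 and HNF4 letters and the Tff2 peak is a gastric gene promoter. The Cdhr2 and Gm6180 peaks were picked after values were seen, as the lowest pancreas ratios with those letters in the central bases.
Nr0b2 peak, chr4:133552945-133553144: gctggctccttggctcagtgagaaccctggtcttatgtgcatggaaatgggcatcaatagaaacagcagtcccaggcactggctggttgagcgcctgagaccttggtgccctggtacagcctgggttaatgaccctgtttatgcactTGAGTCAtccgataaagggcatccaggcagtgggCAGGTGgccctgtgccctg
Sh3pxd2a peak, chr19:47421428-47421627: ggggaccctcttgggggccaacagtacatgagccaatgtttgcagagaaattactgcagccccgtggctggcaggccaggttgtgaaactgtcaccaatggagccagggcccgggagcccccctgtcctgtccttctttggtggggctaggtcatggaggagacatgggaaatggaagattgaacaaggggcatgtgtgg
Mir196b peak, chr6:52230174-52230373: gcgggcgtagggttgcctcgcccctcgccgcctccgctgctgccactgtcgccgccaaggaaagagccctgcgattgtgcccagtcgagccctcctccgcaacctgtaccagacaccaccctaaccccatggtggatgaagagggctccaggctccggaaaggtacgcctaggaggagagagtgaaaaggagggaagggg
Gm16168 peak, chr17:10583542-10583741: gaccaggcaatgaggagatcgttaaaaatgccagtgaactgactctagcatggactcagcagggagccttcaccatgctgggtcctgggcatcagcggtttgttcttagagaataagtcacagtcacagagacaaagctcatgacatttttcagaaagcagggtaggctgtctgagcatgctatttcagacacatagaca
Cys1 peak, chr12:24677340-24677539: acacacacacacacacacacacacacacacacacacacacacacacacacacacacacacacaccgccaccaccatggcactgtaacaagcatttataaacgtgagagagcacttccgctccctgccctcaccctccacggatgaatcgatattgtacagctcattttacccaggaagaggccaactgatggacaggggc
Cym peak, chr3:107218652-107218851: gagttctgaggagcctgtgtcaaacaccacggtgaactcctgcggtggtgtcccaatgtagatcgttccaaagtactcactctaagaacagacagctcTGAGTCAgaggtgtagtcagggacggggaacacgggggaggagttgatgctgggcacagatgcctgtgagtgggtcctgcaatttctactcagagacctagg
Cdhr2 peak, chr13:54701369-54701568: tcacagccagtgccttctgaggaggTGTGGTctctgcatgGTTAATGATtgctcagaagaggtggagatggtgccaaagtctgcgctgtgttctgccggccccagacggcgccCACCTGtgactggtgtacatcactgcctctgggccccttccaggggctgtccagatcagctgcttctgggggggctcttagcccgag
Gm6180 peak, chr8:42187188-42187387: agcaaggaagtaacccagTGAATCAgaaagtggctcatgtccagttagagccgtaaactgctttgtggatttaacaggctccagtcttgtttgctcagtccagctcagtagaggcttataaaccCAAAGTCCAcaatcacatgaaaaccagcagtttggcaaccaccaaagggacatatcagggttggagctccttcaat
Tff2 peak, chr17:31144380-31144579: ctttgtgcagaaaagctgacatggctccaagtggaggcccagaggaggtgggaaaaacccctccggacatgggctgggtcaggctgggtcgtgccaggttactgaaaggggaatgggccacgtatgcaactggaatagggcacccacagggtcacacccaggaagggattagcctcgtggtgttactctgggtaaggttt
The Nr0b2 sequence holds an AP-1 match and a CAGGTG E-box. The Cdhr2 sequence holds matches to RUNX, HNF1 and the E-box, and the Gm6180 sequence to AP-1 and HNF4. The Cym sequence holds an AP-1 match. No searched letters occur in the other 5 windows. The Cys1 window opens with a long run of CA repeats.

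Across the 2042 peaks, accessibility was highest in the liver, intermediate in Panc_OFF and the lungs and lowest in Panc_ON. Median group means were 116 normalised reads in Panc_OFF and 59.1 in Panc_ON, 104 in Lung_OFF and 122 in Lung_ON, and 177 in Liv_OFF and 150.3 in Liv_ON. Over all peaks with a mean of at least 40, the same medians lay between 133 in Liv_OFF and 144 in Panc_ON. On the log2 scale, as a deviation from each peak's own mean, the median was 0.07, 0.12 and −0.02 in the Panc_OFF samples and −0.92, −0.88 and −0.89 in Panc_ON. The Liv_OFF samples stood at 0.83 and 0.66 and the Liv_ON samples at 0.37 and 0.60. In the lungs the spread was wider, with −0.61, 0.31 and 0.05 in Lung_OFF and −0.09, 0.25 and 0.33 in Lung_ON. The 2 liver groups did not overlap, whereas the Lung_OFF samples covered the whole range of the Lung_ON samples apart from the highest.

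**Figure D1:**
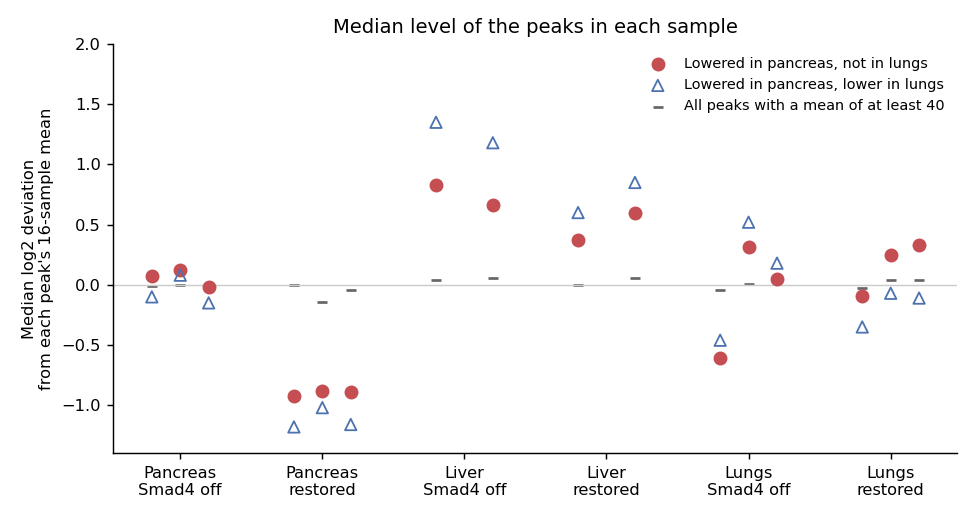
Median log2 deviation from each peak's 16-sample mean (y axis) in every sample of the 6 groups (x axis), for the 2042 peaks lowered in pancreas but not in lungs (filled circles), the 4507 lower in both organs (open triangles) and all 82067 peaks with a mean of at least 40 (dashes). The filled circles fall to −0.92, −0.88 and −0.89 in the restored pancreas, are highest in the liver, and drop to −0.61 in 1 Smad4-off lung sample.

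In the pancreas, the ratio of the restored to the Smad4-off mean had a median of 0.529 and reached down to 0.205. In 717 of the peaks it was at most 0.5 and in 23 at most 0.3. The 3 Panc_ON samples all lay below the 3 Panc_OFF samples in 1825 peaks (89.4%), against 17.7% of all peaks with a mean of at least 40, and limma called 908 of the 2042 lower (44.5%), against 3.06% of all nuclear peaks. Both counts follow from the choice of the peaks. In the lungs the median ratio was only 1.12. It was at least 1.2 in 650 peaks and at least 1.5 in 120, and all Lung_ON samples lay above all Lung_OFF samples in 67 (3.28%), fewer than the 6.56% of all peaks with a mean of at least 40. The lung side of the set is thus mostly a lack of a lower mean, with samples that overlap.

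Peaks near the thresholds differed little from those left out. The members closest to the pancreas limit had ratios of 0.59993 and 0.59990, and the nearest peaks outside had 0.60002 and 0.60009. At the lung limit, peaks near Gm24942 and 9830132P13Rik were inside at 1.00002 and 1.00008, and peaks in introns of Lyl1 and Casz1 were outside at 0.99998 and 0.99998. At the level limit, 2 peaks were inside with means of 40.1 and 40.3 and 2 outside at 39.9 and 39.9 normalised reads.

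The liver response could be tested, since the liver samples entered neither ratio. They did enter the mean over the 16 samples that had to reach 40, so a peak could pass through a high level in liver. With Smad4 restored, the liver mean was lower at 1601 of the 2042 peaks (78.4%), against 49.8% of all peaks with a mean of at least 40. It was lower at 82.3% of the 1511 peaks highest in liver, 69.1% of the 392 highest in lungs and 61.9% of the 139 highest in pancreas. This split uses the liver samples, and the same shares over all peaks are not given. All these peaks share the same liver mice, 2 per group, so they are not independent counts of the shift. The sample medians were 0.83 and 0.66 in Liv_OFF against 0.37 and 0.60 in Liv_ON, a narrow gap beside the spread within each group. The size was small. The median liver ratio was 0.851 and the median log2 fold change −0.24, against −0.01 over all peaks with a mean of at least 40. A liver ratio of at most 0.6, the limit set for the pancreas, was met at 114 peaks (5.58%, against 3.33% of all peaks with a mean of at least 40). A ratio of at most 0.8 was met at 728 (35.7%, against 16.6%), and a ratio of at least 1.2 at 152 (7.44%, against 32.2%).

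Single peaks did not pass the test in the liver. With limma and Benjamini-Hochberg adjustment, 0 of the 2042 were called lower and 0 higher, against 0.0886% and 0.462% of all nuclear peaks. At an unadjusted p under 0.05, 102 (5.00%) were lower and 15 (0.735%) higher, against 4.97% and 10.2% of the peaks with a mean of at least 40. Thus the share that was lower at this level equalled the background, and the share that was higher was below it. edgeR called 0 in either direction on the recovered reads, against 0.0278% lower and 0.0937% higher over all nuclear peaks. DESeq2 called 11 lower and 1 higher, against 0.811% and 3.71% of all the peaks to which it gave an adjusted p. Both Liv_ON samples lay below both Liv_OFF samples at 798 peaks (39.1%) and above them at 96 (4.70%), against 25.2% and 22.6% of all peaks with a mean of at least 40. With 2 samples per group, a change of 1 on the log2 scale was recovered in 40% of simulated cases. The simulation gave all peaks the same spread and no differences between organs, so the share recovered in the real samples is not known. A call also needed an absolute log2 fold change of 0.58, which 236 of the peaks (11.6%) reached downwards and 34 (1.67%) upwards.

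**Figure D2:**
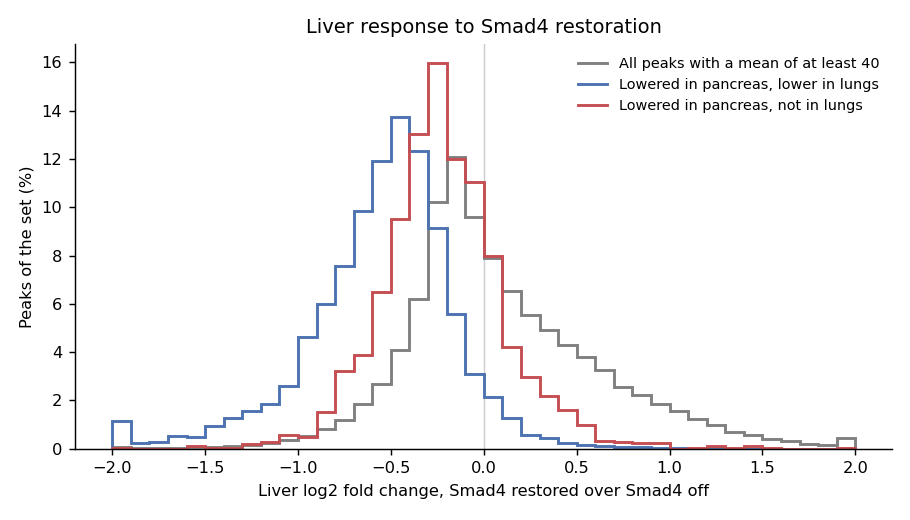
Distribution of the liver log2 fold change, Smad4 restored over Smad4 off (x axis, in steps of 0.1, with values beyond the ends in the outermost steps), as a percentage of each set of peaks (y axis). The 2042 peaks lowered in pancreas but not in lungs have a median of −0.24. The median is −0.51 for the 4507 peaks lower in both organs and −0.01 for all peaks with a mean of at least 40. The fullest step is −0.3 to −0.2 for the 2042 and −0.2 to −0.1 for all peaks, which hold a larger share upwards.

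The liver shift was larger where the lung mean was lower too and smaller where it was higher. The 4507 peaks lower in both pancreas and lungs had a median liver log2 fold change of −0.51 and a lower liver mean at 94.8%. Among the 2042, the 650 with a lung ratio of at least 1.2 had a median liver ratio of 0.933 with 62.3% lower, and the 1392 below that ratio had 0.825 with 85.9% lower. The 717 with a pancreas ratio of at most 0.5 had a median liver ratio of 0.817, and the 1325 above it 0.868. The liver samples entered none of these splits, and no test of the difference between the sets was run. In the 902 peaks that met the rule without Lung_OFF replicate 1, the median liver log2 fold change was −0.13 and the liver mean was lower at 601 (66.6%). In the 1140 that met it only with that library, the values were −0.29 and 1000 (87.7%).

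Averaged over both Smad4 states, most of the peaks were highest in liver, as were still more of those lower in both organs. The liver was the highest organ at 1511 peaks (74.0%), against 45.6% of all peaks with a mean of at least 40, the lungs at 392 (19.2%) and the pancreas at 139 (6.81%). The limit on the mean counts the liver samples too, and so can favour peaks open in liver. With limits of 20 and 100 in place of 40, the liver was highest at 68.8% and 81.8% of the peaks chosen. In limma, 1009 of the 2042 (49.4%) were higher in liver than in lungs and 186 (9.11%) lower, against 21.1% and 29.1% of the peaks with a mean of at least 40, with a median log2 difference of 0.58. Against the pancreas, 1414 (69.2%) were higher in liver and 124 (6.07%) lower, against 28.0% and 32.5%. Between lungs and pancreas, 786 (38.5%) were higher in lungs and 56 (2.74%) lower, against 14.8% and 12.9%. The pancreas average holds the Panc_ON samples, which the rule keeps low, so the contrasts with the pancreas lean upwards by construction. The contrast of liver and lungs is not free of the rule either, since the lung average holds Lung_OFF replicate 1, low at most of these peaks. With that library left out of the fit, 877 of the 2042 were higher in liver than in lungs and 228 lower, with a median log2 difference of 0.44. Among the 4507 peaks lower in both organs, the liver was highest at 87.2%, and limma called 71.4% higher in liver than in lungs and 85.4% higher than in pancreas, so that these levels are not particular to the peaks that were not lower in lungs. Of the 902 peaks that met the rule without Lung_OFF replicate 1, 350 were higher in liver than in lungs and 141 lower, and the liver was the highest organ at 63.6%. Promoter peaks of hepatocyte marker genes, found for 2 of 12 genes, summed to between 719 and 1172 normalised reads in the liver samples against between 233 and 608 elsewhere. Those of pancreatic ductal tumour markers, found for 9 of 10 genes, summed to between 36369.5 and 49046 in liver and between 16909 and 31668 elsewhere. Those of fibroblast markers, found for 10 of 12 genes, ran between 1954 and 2429.6 in liver, between 2258 and 3153 in lungs and between 3828 and 7077 in pancreas. Those of lung epithelium markers, found for 6 of 12 genes, were also highest in liver. They ran between 1999 and 3012 in liver, 1284 and 1626 in lungs and 1083 and 1392 in pancreas. Leucocyte marker promoters, found for 6 of 12 genes, ran between 2637 and 3259 in liver, 2244 and 2746 in lungs and 1614 and 2289 in pancreas. For endothelial and acinar markers, the liver and pancreas samples overlapped. The part of these in the levels was not tested.

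The 8 lowest pancreas ratios are given next, among peaks with a mean of at least 100 and no overlap in the pancreas. Of these 8, only the Nr0b2 and Mir196b peaks met the rule without Lung_OFF replicate 1. The first was the promoter peak of Nr0b2 (chr4:133552598-133553490), which encodes the bile acid-responsive repressor SHP. It held 168, 169 and 261 normalised reads in Panc_OFF against 64.9, 43.3 and 46.8 in Panc_ON, 133, 367 and 283 in Lung_OFF against 208, 381 and 395 in Lung_ON, and 170.3 and 121 in Liv_OFF against 198 and 121 in Liv_ON. The pancreas groups were far apart, while the lung samples overlapped and the liver samples were mixed. The second lay in an intron of Sh3pxd2a (chr19:47421121-47421933), whose product TKS5 is a scaffold of invadopodia. It held 121, 222 and 127 normalised reads in Panc_OFF against 35.6, 39.6 and 46.8 in Panc_ON, 87.4, 230.4 and 228 in Lung_OFF against 130.3, 215 and 265 in Lung_ON, and 264 and 213 in Liv_OFF against 189 and 148 in Liv_ON. All liver samples exceeded the Panc_ON samples. The third overlapped the start of Mir196b in the HOXA cluster (chr6:52229566-52230980), with Hoxa9 as the nearest coding gene. It held 121, 254 and 216 normalised reads in Panc_OFF against 56.9, 65.6 and 37.6 in Panc_ON, 181, 113 and 64.6 in Lung_OFF against 83.1, 236 and 59.7 in Lung_ON, and 54.3 and 50.2 in Liv_OFF against 65.2 and 59.9 in Liv_ON. This peak was lower in liver than in Panc_OFF, unlike most of the set, and its lung samples scattered without a direction.

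**Figure D3:**
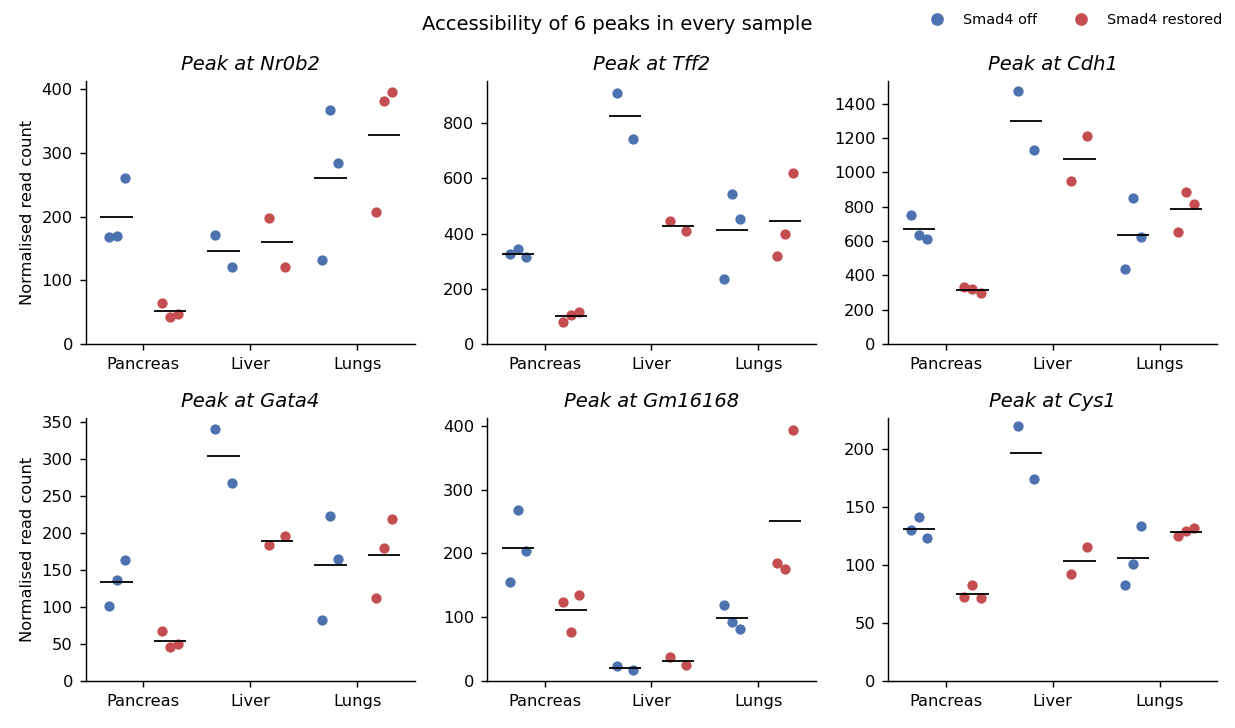
Normalised read count (y axis) of 6 peaks in every sample, by organ (x axis), with Smad4 off in blue and restored in red and black lines at group means. The pancreas is lower with Smad4 restored at all 6 peaks without overlap, the Tff2 and Gata4 peaks are highest in liver with Smad4 off, and the Gm16168 peak is lowest in liver.

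The next 5 all had a liver ratio under 1. They lay in an intron at Gm12937 with a liver ratio of 0.633, in an intron at Gm44669 near Ttc23 with 0.804, between genes at Gm45253 near Acsl1 with 0.644, in an intron of Fam53b with 0.685, and at the start of Gm45486 near Kcnj11 with 0.788. Acsl1 activates long-chain fatty acids and Kcnj11 is the pore of the ATP-sensitive potassium channel of beta cells. Their pancreas ratios ran from 0.280 to 0.302 and their lung ratios from 1.02 to 1.17. At all 5, Lung_OFF replicate 1 was the lowest Lung_OFF sample.

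The 4 highest lung ratios, by the same limits, had mixed values in the liver, and all 4 peaks met the rule without Lung_OFF replicate 1. The peak in an intron at Gm16168 (chr17:10583184-10584098) had a lung ratio of 2.56. It held 155, 268 and 204 normalised reads in Panc_OFF against 123.56, 76.8 and 135 in Panc_ON, 119.7, 92.4 and 81.9 in Lung_OFF against 184, 175 and 394 in Lung_ON, and 23.4 and 16.7 in Liv_OFF against 37.3 and 25.4 in Liv_ON. All Lung_ON samples exceeded all Lung_OFF samples, 1 of them by far, and the liver samples were all below the rest. A peak in an intron at Gm44040 on chromosome 6 had a lung ratio of 2.37, with 81.0, 48.9 and 70.7 normalised reads in Lung_OFF and 150.5, 171 and 154 in Lung_ON, and a liver ratio of 0.943. Peaks at A830008E24Rik and Gm26207 had lung ratios of 2.32 and 2.15 and liver ratios of 1.22 and 1.85. Of these 4 peaks, the liver mean was thus higher at 3.

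In the liver, the 3 smallest p-values downwards lay in an intron of Cys1, which encodes the cilium protein cystin, in an intron more than 100 kb from any start site on chromosome 15, and at the start of Gm38321 near the potassium channel gene Kcnq1. At Cys1 the Liv_OFF samples held 219.7 and 174 normalised reads and the Liv_ON samples 92.0 and 116 (log2 fold change −0.92, SE 0.26, n = 2 per group, limma with Benjamini-Hochberg adjusted p = 0.162). The Gm38321 peak, one of the most open of the set, held 2051 and 1857 in Liv_OFF and 1286 and 1381 in Liv_ON (log2 fold change −0.55, limma adjusted p = 0.189). Upwards, the smallest p-values lay in introns of Cym, a gastric protease gene, and Esr1, the oestrogen receptor gene, and at Gm10532 on chromosome 18. The Cym peak held 25.9 and 27.9 in Liv_OFF and 83.9 and 59.9 in Liv_ON (log2 fold change 1.37, SE 0.41, n = 2 per group, limma with Benjamini-Hochberg adjusted p = 0.178), and the Esr1 peak 32.1 and 16.7 and 60.6 and 49.8. The 2 liver groups were apart at each of these peaks, and none passed the adjusted test. Of the 6, all but the chromosome 15 peak met the rule without Lung_OFF replicate 1.

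The nearest genes were many and mostly had a single peak of the set. A start site within 100 kb was found for 1977 peaks, which belonged to 1701 genes, of which 1477 had 1 peak, 185 had 2 and 39 had 3 or more. The most was 4, reached by 13 genes. In order of their share of peaks with a mean of at least 40, the first 6 were Il5ra (4 of 4), Sh2d4a (4 of 4), Gm42427 (4 of 6), Gm43154 (4 of 7), Nkain1 (4 of 8) and 9530036M11Rik (4 of 9). At Il5ra, which encodes an interleukin receptor chain, the median ratio was 0.468 in the pancreas, 1.18 in the lungs and 0.929 in the liver. The liver mean was lower at all 4 peaks of Gm42427, Nkain1 and 9530036M11Rik, at 3 of 4 of Il5ra and Sh2d4a, and at 0 of 4 of Gm43154. Without Lung_OFF replicate 1, the rule was met by 4 of these peaks at Gm43154, 3 at Gm42427, 2 each at Il5ra, Nkain1 and 9530036M11Rik and 1 at Sh2d4a. Clusters of peaks at 1 gene share their surroundings and are not independent.

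Gene lists drawn up for this description differed in how many of their peaks were in the set, beside 2.49% of all peaks with a mean of at least 40. The share was highest in the gastric and mucin list, with 9 of 49 peaks (18.4%), then in the basal and squamous list (4 of 27, 14.8%), the Wnt list (15 of 150, 10.0%), the epithelial list (5 of 72, 6.94%) and the endoderm and pancreatic lineage list (4 of 66, 6.06%). The lists of MAPK feedback (107 peaks), RUNX and partners (41) and Smad4 effectors named by the study (30) held 0, and the TGFβ pathway list 2 of 174. The order depended on Lung_OFF replicate 1. Without it, 902 peaks (1.099% of those with a mean of at least 40) included 11 of 150 in the Wnt list (7.33%), 3 of 49 in the gastric and mucin list (6.12%), 3 of 72 in the epithelial list (4.17%), 1 of 66 in the endoderm list (1.52%) and 0 of 27 in the basal and squamous list. Of the peaks lower in both organs, 7 lay in the epithelial list (9.72%), 7 in the endoderm list (10.6%), 8 in the Wnt list (5.33%), 3 in the gastric and mucin list (6.12%) and 2 in the basal and squamous list (7.41%). The epithelial and endoderm lists thus held more peaks lower in both organs than peaks of the set. However, the peaks lower in both organs are the larger group, with 4507 against 2042 of the same 82067 peaks. These list counts therefore do not rank the 2 groups. The lists are small and were chosen with earlier results known, so the counts are a description.

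**Figure D4:**
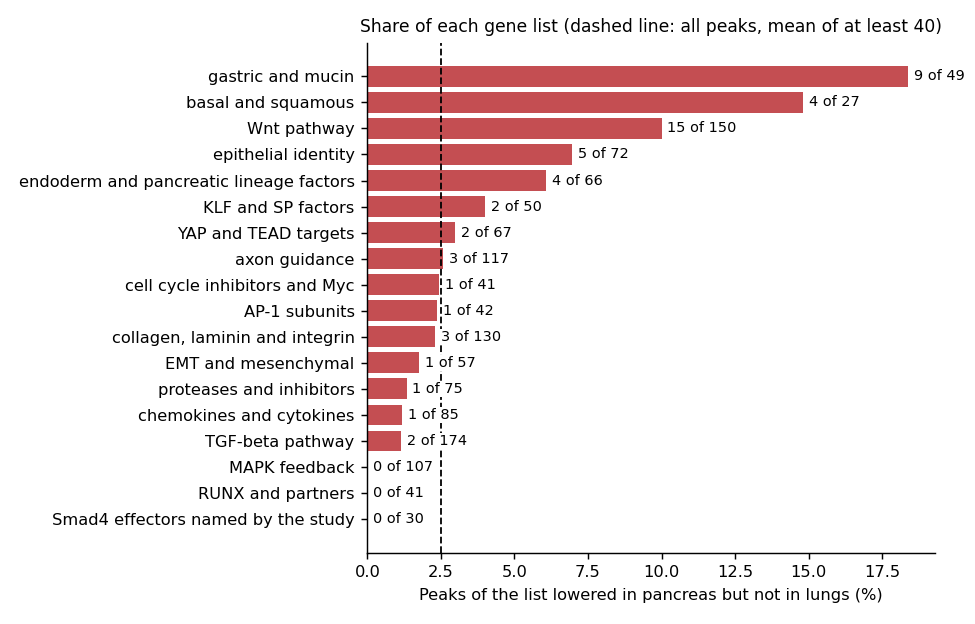
Percentage of the peaks of each of 18 gene lists (mean of at least 40, nearest start site within 100 kb) that were lowered in pancreas but not in lungs, with counts beside the bars and a dashed line at 2.49%, the share over all such peaks. The gastric and mucin list stands highest at 9 of 49, of which 3 met the rule without Lung_OFF replicate 1, and 3 lists hold 0.

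Gastric genes had 9 peaks in the set. Tff2, Tff3 and Gkn3 encode secreted peptides of the stomach lining and Agr2 a disulfide isomerase needed for mucin folding, while Gata5 and Gata6 are endodermal transcription factors. The promoter peak of Tff2 (chr17:31143802-31145157) was the lowest by pancreas ratio. It held 325, 343 and 315 normalised reads in Panc_OFF against 80.0, 105 and 116 in Panc_ON, 236, 544 and 453 in Lung_OFF against 319, 397 and 619 in Lung_ON, and 909.6 and 739.8 in Liv_OFF against 444 and 408 in Liv_ON. The liver samples with Smad4 restored were both below those with Smad4 off, at a ratio of 0.517 (log2 fold change −0.94, SE 0.33, n = 2 per group, limma with Benjamini-Hochberg adjusted p = 0.254), and this did not pass the adjusted test. A further Tff2 peak 5040 bp from the start, and a Tff3 peak, had liver ratios of 0.651 and 0.734. The Gkn3 peak had 0.560. The 2 Agr2 peaks had pancreas ratios of 0.376 and 0.468 and liver ratios of 1.08 and 0.711. The 2 Gata5 peaks had liver ratios of 0.922 and 0.808, and the distal Gata6 peak, 74451 bp from the start, had 2.009. In all, 7 of the 9 had a lower liver mean with Smad4 restored. Without Lung_OFF replicate 1, only the distal Tff2 peak, the Gata6 peak and the Gata5 peak 4615 bp from the start met the rule. The Tff2 promoter peak did not.

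Wnt genes contributed 15 peaks at 9 genes, of which 11 had a lower liver mean. The ligand genes Wnt7b, Wnt4, Wnt7a and Wnt5b carried 7 of them. At the Wnt7b intron peak (chr15:85557728-85558452) the Panc_OFF samples held 44.4, 122 and 83.3 normalised reads and the Panc_ON samples 36.4, 40.9 and 14.6, with a lung ratio of 1.68 and a liver ratio of 0.635. The Wnt4 promoter peak had ratios of 0.378 in the pancreas, 1.04 in the lungs and 0.685 in liver samples. The 3 Wnt7a intron peaks had liver ratios of 1.33, 0.962 and 1.68, so that the liver mean was higher at 2 of 3. Among genes that restrain the pathway, Znrf3 and Rnf43 (ligases that remove Frizzled receptors) and Nkd1 carried 4 peaks, with liver ratios of 0.720 and 0.814 at Znrf3, 0.591 at the Rnf43 promoter and 1.35 at Nkd1. The co-receptor gene Lrp5 and the nuclear effector gene Tcf7l2 had 2 peaks each, all with a lower liver mean. The Wnt4 peak, both Znrf3 peaks and the Tcf7l2 intron peak did not meet the rule without Lung_OFF replicate 1, and the other 11 did. The peaks at Wnt7a and Wnt5b lie on chromosome 6, those at Lrp5 and Tcf7l2 on 19, Wnt4 on 4 and Nkd1 on 8. Those chromosomes had the highest shares of the set, between 3.66% and 4.87%. The peaks at Wnt7b, Znrf3 and Rnf43 lie on chromosomes 15 and 11. The part of chromosome in the Wnt share was not tested.

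Epithelial and lineage genes followed. The peak in an intron of Cdh1 (chr8:106630568-106634404), the E-cadherin gene, was among the most open of the set. It held 752, 637 and 615 normalised reads in Panc_OFF against 332, 322 and 297 in Panc_ON, 436, 849.8 and 624 in Lung_OFF against 651, 884 and 817 in Lung_ON, and 1472 and 1129.9 in Liv_OFF against 948 and 1213 in Liv_ON. Its lung and liver samples overlapped between Smad4 states. A second Cdh1 intron peak had ratios of 0.566 in the pancreas, 1.57 in the lungs and 0.971 in liver samples, and peaks at Ehf and Krt19 had liver ratios between 0.847 and 0.952. At Gata4, an endodermal factor, the intron peak (chr14:63205093-63206078) was lowest in Panc_ON and highest in Liv_OFF. It held 102, 137 and 164 normalised reads in Panc_OFF against 67.6, 45.8 and 49.8 in Panc_ON, 82.8, 223 and 165 in Lung_OFF against 112, 179 and 219 in Lung_ON, and 341 and 268 in Liv_OFF against 183 and 196 in Liv_ON. The liver groups were apart, with a ratio of 0.623 (limma adjusted p = 0.533). The 2 peaks at Pdx1, the pancreatic master regulator, had pancreas ratios of 0.486 and 0.522 and liver ratios of 1.06 and 0.863. In the basal and squamous list, 2 peaks each lay at Trp63 and Perp, with liver ratios of 0.858 and 0.990 at Trp63 and 1.39 and 0.881 at Perp. Without Lung_OFF replicate 1, both Cdh1 peaks met the rule, whereas the Gata4 peak above, both Pdx1 peaks and all 4 at Trp63 and Perp did not.

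The other lists held between 0 and 3 peaks each. Within the TGFβ list, the Smad1 intron peak had ratios of 0.511 in the pancreas, 1.11 in the lungs and 0.724 in liver samples, with Liv_OFF at 754 and 642 and Liv_ON at 427 and 584 normalised reads. The peak between genes at Jund, an AP-1 subunit gene, had ratios of 0.383 in the pancreas, 1.17 in the lungs and 0.599 in liver samples. The promoter peak of Il33, an epithelial alarmin, had ratios of 0.525 in the pancreas, 1.03 in the lungs and 0.709 in liver samples. The intron peak of Klf7 had 0.346 in the pancreas, 1.53 in the lungs and 1.01 in liver samples, and the distal peak nearest Ccnd1, the cyclin D1 gene, 0.438 in the pancreas, 1.43 in the lungs and 1.28 in liver samples. The intron peak of Sparc, a matrix gene, had 0.484 in the pancreas, 1.104 in the lungs and 1.44 in liver samples. Of these 6, the Klf7, Ccnd1 and Sparc peaks met the rule without Lung_OFF replicate 1. The remaining list peaks lay at Klf10, Crim1, Itgb6, Lamb3, Timp3, Robo2, Sema3c, Plxna2 and Smad7. Of marker lists of other cell types, fibroblast (36 peaks), endothelial (40) and leucocyte (14) markers held 0 of the set, acinar markers 1 of 11 (Ctrb1), hepatocyte markers 2 of 19 (Apob and Cps1) and lung epithelium markers 2 of 34 (both at Sftpb).

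Promoters were less frequent in the set than among all peaks, as in the peaks lower in both organs. It had 10.4% promoter peaks (within 1000 bp of a start site), 2.79% in exons, 48.4% in introns and 38.3% between genes, against 20.8%, 2.86%, 42.4% and 33.9% of all peaks with a mean of at least 40. Promoter peaks were 11.5% of the 4507 lower in both organs and 9.42% of the 902. The median distance to a start site was 12277 bp against 9339 bp. Median width was 835 bp against 911 bp, and GC content 47.3% against 47.2%. Liver means were lower at 81.2% of the promoter peaks, 91.2% of the exon peaks, 79.4% of the intron peaks and 75.5% of those between genes.

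Letters of transcription factor motifs, searched on both strands in the central 300 bases, differed in share from the other peaks. HNF1 letters (GTTAATNAT) occurred in 79 peaks (3.87%), against 1.28% of all peaks with a mean of at least 40, and HNF4 letters (CAAAGTCCA) in 68 (3.33%) against 0.907%. GATA letters (AGATAAG) stood at 6.90% against 4.61% and the E-box of ZEB and SNAI factors (CAGGTG) at 23.4% against 19.6%. AP-1 letters (TGANTCA) were less frequent, at 19.4% against 30.8%, and so were ETS (CCGGAAG, 1.62% against 3.17%) and CTCF (AGGGGGC, 3.87% against 5.77%). Shares were close for RUNX (TGTGGT, 27.1% against 25.3%), KLF (GGGNGTGG, 13.6% against 12.0%), TEAD (CATTCCA, 7.98% against 6.47%), FOX (TGTTTAC, 5.83% against 5.53%), NF-kB (GGGANTTCC, 2.06% against 1.74%) and the SMAD palindrome (GTCTAGAC, 0.343% against 0.296%). Peaks can hold several of these.

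The peaks lower in both organs shared most of this composition. There HNF1 stood at 3.28% and HNF4 at 2.49%, with AP-1 lower still at 14.5% and the E-box higher at 29.1%. Within the 2042, peaks with AP-1 letters had a median liver ratio of 0.924 and those without 0.834. Peaks with HNF1 or HNF4 letters had 0.837 and 0.820, against 0.852 for those without each. In the 902 peaks that met the rule without Lung_OFF replicate 1, AP-1 stood at 24.7%, HNF1 at 3.10% and HNF4 at 3.88%. These are counts of letters, with no test.

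**Figure D5:**
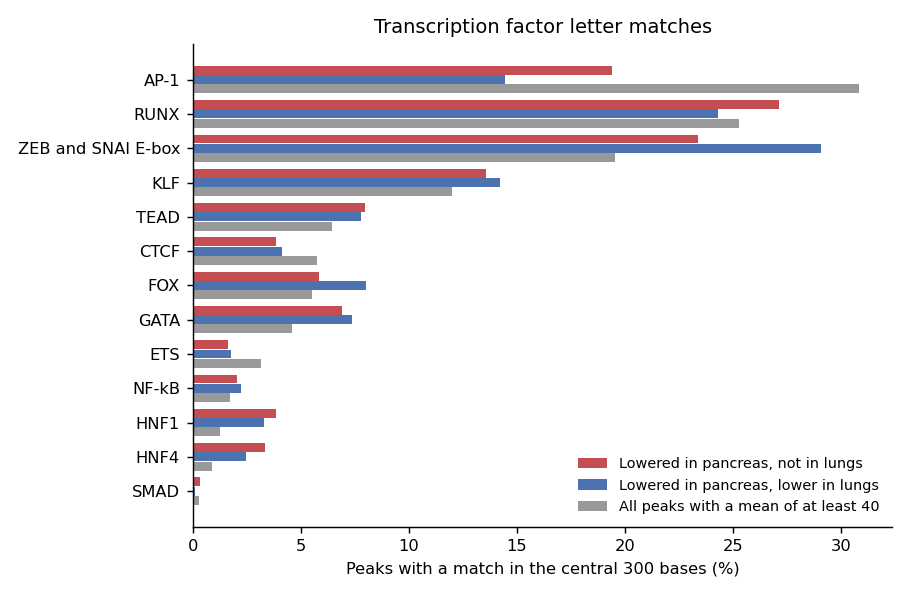
Percentage of peaks (x axis) with a match to the letters of each of 13 transcription factor motifs (y axis) in the central 300 bases, for the 2042 peaks lowered in pancreas but not in lungs, the 4507 lower in both and all with a mean of at least 40. AP-1 is at 19.4% in the first set against 30.8% of all, while HNF1 and HNF4 are at 3.87% and 3.33% against 1.28% and 0.907%.

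The examples with HNF letters were open in liver. The promoter peak of Cdhr2 (chr13:54701015-54701922), a protocadherin of the intestinal brush border, carried HNF1 letters. It held 148, 108 and 114 normalised reads in Panc_OFF against 42.7, 55.7 and 44.5 in Panc_ON, 91.1, 191 and 116 in Lung_OFF against 138, 134 and 163 in Lung_ON, and 468 and 415 in Liv_OFF against 284 and 373 in Liv_ON. The peak at Gm6180 (chr8:42186804-42187770), with HNF4 letters, lay 59141 bp from that gene's start. It held 336, 199 and 248 normalised reads in Panc_OFF against 116, 100.3 and 104 in Panc_ON, 155, 298 and 191 in Lung_OFF against 189.8, 300.003 and 257 in Lung_ON, and 413 and 358 in Liv_OFF against 273 and 387 in Liv_ON. At both, every liver sample lay above every Panc_ON sample. The Gm6180 peak met the rule without Lung_OFF replicate 1 and the Cdhr2 peak did not. At Cdhr2 every liver sample also lay above every Panc_OFF sample.

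The set was spread over all autosomes and X, at unequal shares. It took 4.87% of the peaks with a mean of at least 40 on chromosome 6, 4.48% on 19, 3.96% on 8 and 3.66% on 4, and between 1.33% and 2.49% elsewhere apart from the Y chromosome, with 0 of 18 peaks. On chromosome 6 the share was uneven, with 4 of 1183 peaks (0.338%) between 124 and 150 Mb and 222 of 3460 (6.42%) in the rest. Of the 902, the shares were 2.86% on chromosome 6, 2.41% on 19, 1.74% on 4 and 1.69% on 8, and between 0.451% and 1.17% on the other autosomes and X. In the 3 adjacent windows of 5 Mb from 130 Mb of chromosome 4, which include Nr0b2 and Wnt4, 71 of 1118 peaks were members (6.35%). The other peaks there had median log2 deviations of −0.28, −0.46 and −0.16 in Panc_ON against −0.08, −0.06 and −0.12 in Panc_OFF, so that the neighbouring peaks were on the median lower in the restored pancreas too. Between 50 and 55 Mb of chromosome 6, 30 of 291 peaks were members (10.3%), and the other peaks stood at −0.19, −0.36 and −0.12 in Panc_ON. Centring every sample on the median of each 5 Mb window left 1570 peaks by the same rule, of which 1285 were among the 2042 (62.9%). Their liver mean was lower at 77.1% with a median log2 fold change of −0.24. The part of regional level in single peaks was not tested further.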

How the data were processed

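Bulk ATAC-seq was analysed in 16 samples of 6 groups. The deposited table gives a coverage signal: reads in each peak, normalised by the authors. Their methods name Trim Galore and cutadapt for trimming, Bowtie2 for alignment (mm10) and MACS2 for peaks. They merged nearby peaks into 1 atlas, counted with featureCounts and divided by DESeq2 size factors. The submitters' processing notes also name FastQC 0.11.5. One allele of the model is not reported here. Such scaling takes most peaks as unchanged. Whole reads were recovered from 100% of values (within 0.01 read), 22994669 to 38218315 per sample, and the mitochondrial row (1.43% to 3.56% of reads) was left out.

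The members, gene lists and motifs were chosen with earlier results of these data known. Raw group means gave the ratios. limma 3.58.1 in R 4.3.3 (trend, robust) was fitted to log2(normalised count + 1) with 6 group means, which understates changes of low peaks, with Benjamini-Hochberg adjustment over 136630 peaks and calls at 0.58 or more in absolute log2 fold change with adjusted p up to 0.1. Alternatives used edgeR 4.0.16 and DESeq2 1.42.0 on recovered reads, other scalings, filters and thresholds, a replicate block, a GC correction and leaving out samples. On simulated data of 136630 peaks for the liver comparison, 100% of changes of 2 and 40% of changes of 1 on the log2 scale were recovered, with 44 false calls. The simulated peaks all had the same fixed spread and no differences between organs, unlike the real samples.

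Peaks were assigned to the nearest start site within 100 kb in GENCODE vM21, and sequence was read from GRCm38.p6, with coordinates as deposited. Outside promoters and exons, a peak was labelled intronic where its centre lay within a transcript of any gene. That gene need not be the nearest one by which the peak is named. Named peaks were, among peaks with a mean of at least 100 and no overlap of pancreas replicates, the 8 lowest pancreas and 4 highest lung ratios. Others were the 3 smallest liver p-values in each direction, the lowest pancreas ratio in each gene list, the genes with most members and the peaks next to each threshold. Deviations from the group mean correlated at 0.491, 0.124 and 0.214 between same-numbered Lung_OFF and Lung_ON samples. The values were −0.33, 0.027 and −0.33 in pancreas and 0.083 in liver. Samples of unlike number were not compared, so these values do not show that the numbers pair the samples.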

Additional observations from a re-analysis of the deposited data

How the results depend on the processing

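The number of peaks depended on the limits. It was 717 and 4161 with pancreas ratios of at most 0.5 and 0.7. With a mean of at least 100 it was 1142, and with a lung ratio of at least 1.1 it was 1173. It ran from 944 to 3797 when 1 sample was left out, both ends set by Lung_OFF samples (944 without replicate 1, 3797 without replicate 2). Without Lung_ON replicate 1, the lowest Lung_ON sample by its median at these peaks, it was 2839. The median liver log2 fold change stayed below 0 in all 51 alternatives, but many of these could not move it. With a pancreas or lung sample left out and the 2042 peaks kept, it was −0.24 by construction, since the fit uses group means. It was −0.15 and −0.34 without Liv_OFF replicates 1 and 2, and −0.11 and −0.35 without Liv_ON replicates 1 and 2. With the peaks chosen again, it was −0.14 and −0.33 without Lung_OFF replicates 1 and 2. In the liver, calls ran from 0 to 5 with 1 sample left out, with 5 lower without Lung_OFF replicate 1, and with 1 lower and 1 higher without Liv_ON replicate 2, where the lone restored sample was assumed to vary like the other groups. DESeq2 called 12. Choosing peaks again under each setting, the 5 Mb centring and the 902-peak set were added after seeing the data. Choosing again gave 1 call each with a pancreas ratio of at most 0.7, with quantile normalisation, with GC correction, with 5 Mb centring and without Panc_OFF replicate 3, and 2 each with medians and without Lung_OFF replicate 2 or Lung_ON replicate 3. Organ calls are given here with higher and lower counted together. With 1 sample left out they ran from 1483 to 1568 (liver and pancreas), 641 to 1107 (lungs and pancreas) and 1069 to 1269 (liver and lungs). At limits of 1 and 0.05 the last 2 were 201 and 674. For the 902 peaks that met the rule without Lung_OFF replicate 1 the organ calls were 617, 337 and 491, by fewer peaks. In each of these fits, more calls were higher than lower in the first organ named. Shares over all peaks are given above for the main fit only. A general change in calls therefore cannot be told apart from one at these peaks. A replicate block gave 0 liver calls and 1544, 859 and 1203 organ calls, which moved none of these by over 1.5 times, but it raised the calls over all peaks for the lung minus pancreas response from 0 to 248. DESeq2 called 2255 there and edgeR 0. These fits were added after seeing the data.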
